A study of Danio rerio with 12 samples.

Results

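Rab GTPases, together with the proteins that switch them on and off, were followed in macrophage-lineage cells of zebrafish larvae after a brain wound. The members were all genes whose symbol began with *rab* and a digit, *dennd*, *tbc1d*, *rabgef*, *rabep* or *rabgap*. This gave 135 of the 22962 genes measured, and 119 of them reached a mean of at least 1 CPM over the 9 libraries and were tested among 16347 genes. The 2 hpi group consisted of *mpeg1:GFP* larvae at 4 dpf whose optic tectum had been pierced with a pin, taken 2 hours post injury (hpi). The sham group consisted of *mpeg1:GFP* larvae of the same age that were anaesthetised, embedded and released without a wound. Each library held the sorted GFP-positive cells of about 180 pooled larval heads, and the *mpeg1* promoter drives GFP in macrophages, microglia included. There were 3 libraries at 2 hpi (replicates 1, 2 and 4) and 6 sham libraries (replicates 1 to 6), and the other 3 injury samples were not analysed here because the study had set them aside for their quality. The p-values measure the spread between these sorted pools.

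Rab proteins are small GTPases that mark the membranes of the cell. Different Rabs work on different compartments, and several can share a compartment. An exchange factor, often one with a DENN domain, loads a Rab with GTP, the active Rab recruits effectors that move or fuse vesicles, and a GTPase-activating protein (GAP), usually with a TBC domain, returns it to the inactive form. In macrophages and microglia this cycle carries engulfed material through the phagosome to the lysosome, returns receptors to the cell surface and delivers secreted proteins.

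The values were reads per gene as CPM, that is relative to the size of the library, scaled for library composition, resting on 6754699 to 8180104 reads on genes per library. Detection was limited to 3 reads, which is 0.349 to 0.466 CPM depending on the library. Differences are log2 values of 2 hpi minus sham on log2(CPM + 0.5), a scale that understates the change of low genes, and were tested with limma with a threshold of FDR<0.01. The summed CPM of 10 macrophage lineage markers was 9454 to 10357 at 2 hpi and 7611 to 8906 in sham libraries, without overlap, and 1 of the 10 rose. That of 9 microglial markers was 9639 to 13102 at 2 hpi and 8582 to 12744 in sham libraries, with 1 of the 9 higher. Neutrophil genes were also well represented, with 8120 to 10573 CPM over 7 genes at 2 hpi and 7791 to 10941 CPM in sham libraries, and 1 of the 7 rose. Neuronal, erythrocyte and keratinocyte markers were low, each list summing to at most 154 CPM at 2 hpi and 171 CPM in sham libraries, and only *hbae1.1* among the listed genes had no row. The part of these other cell types in the results below was not tested. In such bulk samples, fewer cells of a type and less RNA per cell cannot be told apart.

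Of the 119 tested members, 2 rose after injury, the exchange factor *dennd4a* and the Rab11 interacting protein *rab11fip1b*, and 0 fell. This was 1.68% of the members, against a background of 2.09% of all tested genes that rose and 0.593% that fell. At the looser FDR<0.05, 5 members were higher and 1 was lower, against 3.55% and 1.96% of all tested genes. The additional members at this level were *rab5ab*, *rab8b* and *rab1ba*, all higher, and *tbc1d10ab*, which was lower. The quasi-likelihood test of edgeR and limma-voom each called 2 members higher and 0 lower, and DESeq2 called 3 higher and 1 lower. Of all 16347 tested genes, edgeR called 327 higher and 61 lower, limma-voom 360 and 43, and DESeq2 493 and 220. With the replicate number as a second factor in limma (replicate block), 4 members were higher and 0 lower, against 474 and 145 of the 16347 genes. An unadjusted p under 0.05 in limma was seen for 32 members, or 26.9% (20 higher and 12 lower), and for 17.4% of all tested genes. Scaled by library size alone, 11 members were higher and 17 lower at this level. Where the average reached 50 CPM, the shares in the main fit were 39.6% of the 48 members and 28.8% of all genes. Every library at 2 hpi lay above every sham library for 14 members, or 11.8%, against 5.68% of all tested genes. The opposite held for 4 members, or 3.36%, against 4.55% of all tested genes. With library size alone, 5 members (4.2%) lay above all sham libraries and 9 (7.56%) below, against 3.88% and 6.85% of all tested genes. Of the 14 members, 12 averaged at least 50 CPM, which was 25% of the 48 members at that level, against 13.4% of all genes at that level.

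**Figure D1:**
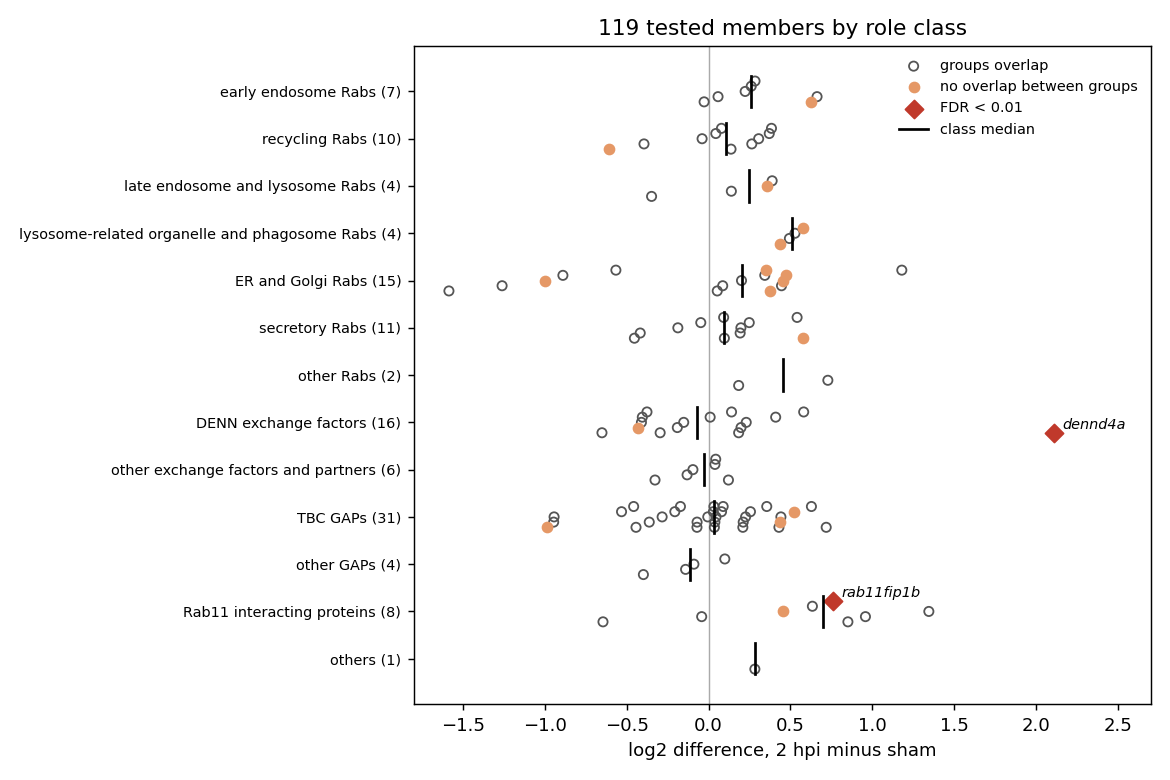
Log2 difference (2 hpi minus sham) of the 119 tested members by role class, with the number of tested members in brackets. Each point is 1 gene, black bars are class medians and red diamonds mark FDR<0.01. *dennd4a* at 2.11 stands far to the right of the other DENN genes, and the 7 Rab classes have their median above 0 (with library size alone, that of recycling Rabs was -0.004).

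*dennd4a* (ENSDARG00000062721) had the largest difference of all members. In human cells its product is an exchange factor for Rab10, like the other proteins of the DENND4 family. Its level was 577, 727 and 769.5 CPM in the libraries at 2 hpi, against a lowest value of 129.9, a median of 162 and a highest of 179 CPM in sham libraries. Every library at 2 hpi was thus more than 3 times above the highest sham library. The mean was 691 ± 101 CPM at 2 hpi (SD, n = 3) and 159 ± 16.8 CPM in sham larvae (SD, n = 6), a 4.35-fold difference. The log2 difference was 2.11 with a standard error of 0.127 and an FDR of 7.24e-10 in limma. The exact permutation test over the 84 ways to choose 3 of 9 libraries gave a two-sided p of 0.0119, the smallest it can give. At least 1061 reads lay behind each value. In the GRCz12tu annotation, *dennd4a* overlaps *si:dkey-242h9.5*, which had 6.06 to 9.53 CPM at 2 hpi and 5.51 to 14.9 CPM in sham libraries, a log2 difference of -0.05.

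The other genes of the family and the Rab they act on did not pass the test. *dennd4b* measured 58.0, 47.0 and 63.8 CPM at 2 hpi, within the sham range of 30.8 to 65.1 CPM, with a log2 difference of 0.20 (limma FDR 0.69). *DENND4C*, whose human counterpart acts on Rab10 in the delivery of glucose transporters to the cell surface, measured 157, 144 and 137 CPM at 2 hpi, against 148 to 190.4 CPM in sham libraries, a log2 difference of -0.19 (FDR 0.46). *rab10* itself, a GTPase of secretory and recycling vesicles, had 227, 209 and 261 CPM at 2 hpi, against a lowest value of 189.8, a median of 203 and a highest of 215 CPM in sham libraries. The groups overlapped in 1 library at 2 hpi, and the log2 difference was 0.19 with a standard error of 0.118 (FDR 0.427). Expressed as a ratio to *dennd4b*, *dennd4a* was 1.91 higher on the log2 scale at 2 hpi than in sham larvae (SE 0.24, FDR 1.12e-06 over 1248 gene pairs, a comparison described with the pairs below).

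**Figure D2:**
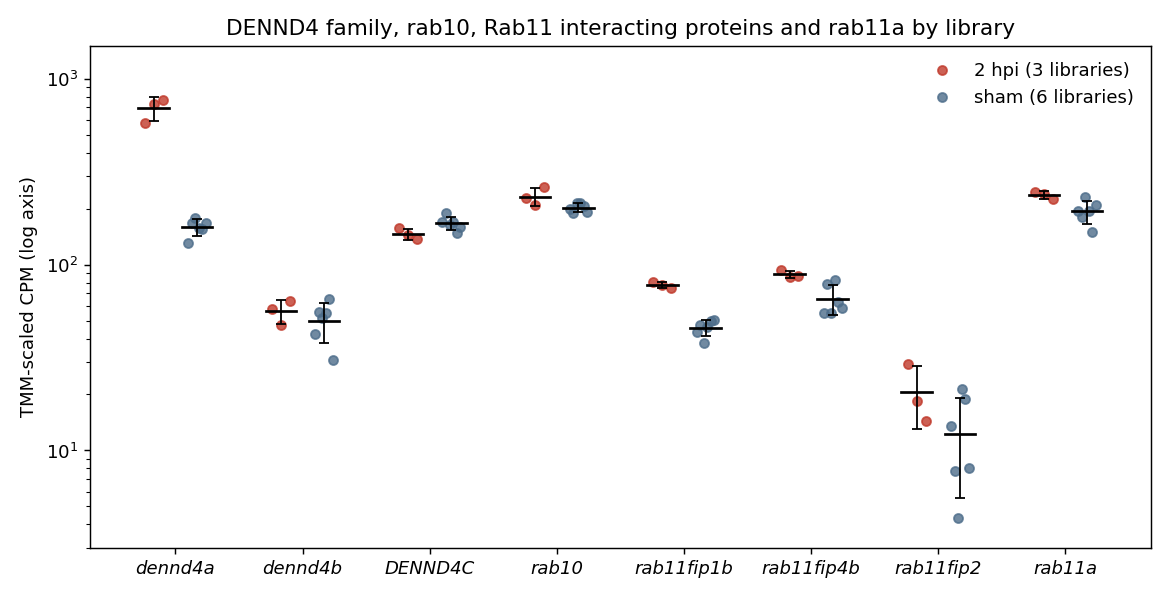
Scaled CPM on a log axis in each library for the DENND4 family, *rab10*, 3 Rab11 interacting proteins and *rab11a*. Points are libraries, horizontal bars are means and whiskers are SD (n = 3 at 2 hpi, n = 6 in sham). *dennd4a* at 577 to 769.5 CPM and *rab11fip1b* at 75.1 to 80.9 CPM are separated from their sham libraries, and *dennd4b*, *DENND4C* and *rab10* are not. Genes differ in length, so heights are to be compared within a gene.

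Across the DENN genes as a class, the differences went both ways. Of 16 tested, 1 rose, or 6.25%, against 2.09% of all tested genes. A positive difference was seen for 8 and a negative one for 8, and the median was -0.07, against -0.02 over all tested genes. The one DENN gene with every library at 2 hpi below every sham library was *dennd5a* (ENSDARG00000017006), whose human counterpart acts on Rab39. It measured 70.3, 80.1 and 83.9 CPM at 2 hpi and between 96.5 and 111 CPM in sham libraries, with a median of 107 CPM. The difference of -0.43 on the log2 scale (SE 0.135) had an FDR of 0.0641. The lowest difference of the class, -0.65, was that of *DENND6A (1 to many)*, named after a human exchange factor of Rab14 and so labelled because the human gene has several zebrafish counterparts. It measured 28.4, 13.5 and 15.7 CPM at 2 hpi. Its sham libraries spanned 23.5 to 34.9 CPM, which overlapped replicate 1 at 2 hpi (FDR 0.138). The row *dennd6aa* was also negative (log2 difference -0.41, FDR 0.652). How alike such copies are in sequence was not examined. Their reads may have been split between rows, and these values are uncertain.

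The name rule also took in exchange factors outside the DENN family and the rabaptins *rabep1* and *rabep2*, Rab effectors that bind the exchange factor Rabex-5. The 6 genes had a median difference of -0.03 and a range of -0.33 to 0.12, and 0 passed the test in either direction with limma, limma-voom, edgeR or DESeq2, or had an unadjusted p under 0.05. The member with the most reads was *rab3il1*, an exchange factor known in mammals to act on Rab3 and Rab8, with a mean of 126 ± 21.8 CPM at 2 hpi (SD, n = 3) and 122 ± 15.3 CPM in sham larvae (SD, n = 6).

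The second member that rose was *rab11fip1b* (ENSDARG00000036462). Its mammalian counterpart, Rab coupling protein, binds Rab11 on recycling endosomes, the compartment that returns internalised receptors to the surface. The level was 80.9, 77.3 and 75.1 CPM at 2 hpi, against a lowest value of 38.02, a median of 46.9 and a highest of 50.3 CPM in sham libraries. The libraries at 2 hpi were close to each other and clearly apart from the sham libraries. Means were 77.8 ± 2.96 CPM at 2 hpi (SD, n = 3) and 45.9 ± 4.63 CPM in sham larvae (SD, n = 6), a 1.7-fold difference. The log2 difference of 0.76 (SE 0.159) had an FDR of 0.00443 in limma. The exact permutation p was 0.0119, the smallest possible, which members that did not pass, such as *rab7* and *rab43*, also had. The call of *rab11fip1b* was near the threshold. The FDR was 0.0185 when library size alone was used for scaling, 0.0325, 0.0199 and 0.0227 without replicate 1, 2 or 4 at 2 hpi, and 0.0113 without sham replicate 1. In GRCz12tu the gene overlaps *ess2*, for which no row under that name was present.

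The Rab11 interacting proteins as a class had the highest median of the classes with more than 4 members, 0.70 over 8 genes. Of the 8, 1 rose at FDR<0.01, or 12.5%, against 2.09% of all tested genes. There were 6 positive and 2 negative differences, the negative ones being *rab11fip3* (-0.65, FDR 0.48) and *rab11fip5a* (-0.04, FDR 0.973). Part of the class median rests on thinly covered genes, and it was 0.45 over those with a mean of at least 5 CPM. The highest difference, 1.35, was that of *rab11fip4a*, with 6.53, 2.79 and 4.55 CPM at 2 hpi and 0.41 to 3.40 CPM in sham libraries (FDR 0.198). *rab11fip1a*, the copy of *rab11fip1b*, had 0, 3.26 and 3.08 CPM at 2 hpi and 0 to 1.27 CPM in sham libraries (FDR 0.529). Somewhat better covered was *rab11fip2*, which links Rab11 to the motor myosin V in mammals, with 29.2, 18.5 and 14.4 CPM at 2 hpi, against 4.31 to 21.4 CPM in sham libraries (FDR 0.259). *rab11fip4b* had 93.4, 85.9 and 87.0 CPM at 2 hpi, against a lowest value of 55.0, a median of 60.6 and a highest of 83.0 CPM in sham libraries. Its groups did not overlap, while its log2 difference of 0.45 (SE 0.165) had an FDR of 0.125. The GTPase they bind, *rab11a*, measured 247, 241 and 224 CPM at 2 hpi, and overlapped the sham range of 150.03 to 232 CPM, with a log2 difference of 0.31 (FDR 0.214).

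Of the 69 rows for Rab GTPases under the name rule, 53 were tested. With limma and the condition as the only factor, edgeR's quasi-likelihood test or limma-voom, 0 passed FDR<0.01 in either direction. DESeq2 called *rab8b* higher, and limma with a replicate block called *rab5ab* and *rab27a* higher. A row outside the rule but named RAB7A in a newer name table, *zgc:91909*, did pass in limma (log2 difference 0.95, FDR 0.000247). At an unadjusted p under 0.05 in limma, 13 of the 53 were higher and 6 lower, together 35.85%, against 17.4% of all tested genes. Among all genes averaging at least 50 CPM, this share was 28.8%. Scaled by library size alone, 7 of the 53 were higher and 6 lower at an unadjusted p under 0.05. Positive differences were seen for 39 of the 53, or 73.6%, against 48.0% of all tested genes, and the median was 0.20, against -0.02. This background rose with expression level. Where the average reached 50 CPM, 60.9% of all genes were positive, with a median of 0.07. Members of all classes at that level were positive in 79.2%, with a median of 0.20. The 53 Rab GTPases on their own were not compared with genes of similar level. With library size alone in place of the composition factors, which lowered the median over all tested genes by 0.11 to -0.13, the Rab median was 0.08. Between libraries, the median deviation of these 53 genes from the sham mean was 0.12, 0.25 and 0.32 in replicates 1, 2 and 4 at 2 hpi and -0.08 to 0.10 in sham libraries. The libraries at 2 hpi did not agree closely, and replicate 1 lay only just above the highest sham library. The TBC genes differed in this respect, with medians of -0.09, -0.06 and 0.21 in the same 3 libraries and -0.04 to 0.11 in sham libraries.

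**Figure D3:**
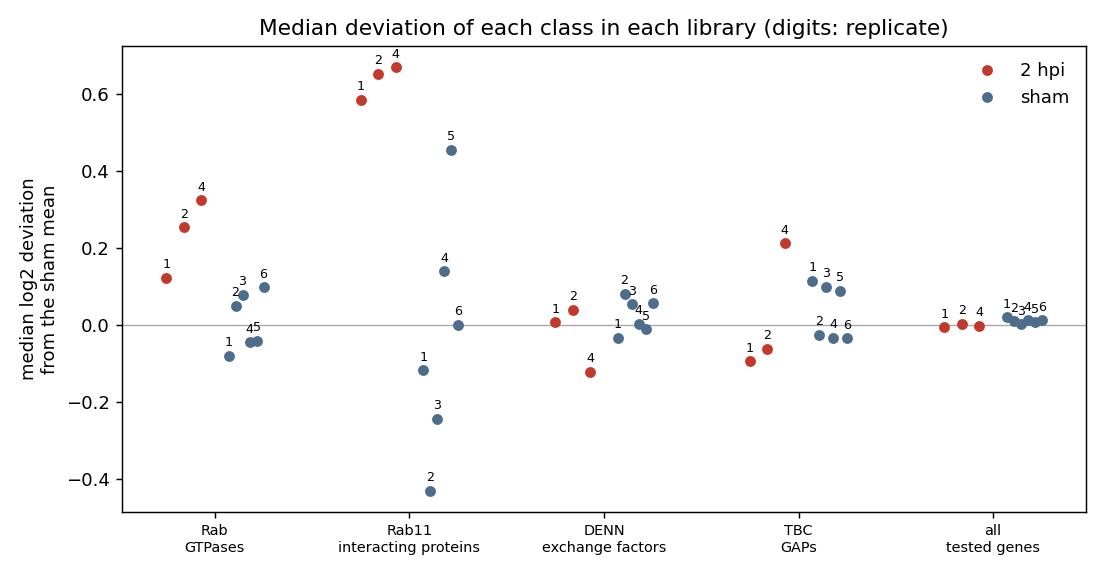
Median log2 deviation from the sham mean in each library for 53 Rab GTPases, 8 Rab11 interacting proteins, 16 DENN genes, 31 TBC genes and all 16347 tested genes. Each point is 1 library, and the digit is its replicate number. Rab GTPases lie at 0.12 to 0.32 at 2 hpi and at -0.08 to 0.10 in sham libraries, DENN and TBC genes overlap between the groups, and all genes lie near 0.

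Among the 7 early endosome Rabs, 6 were positive, with a median of 0.26. *rab5ab* (ENSDARG00000007257) encodes a copy of Rab5, which drives fusion of early endosomes and of young phagosomes. It measured 83.97, 121 and 88.7 CPM at 2 hpi, all above its sham libraries with a lowest value of 47.8, a median of 64.4 and a highest of 79.8 CPM. The log2 difference was 0.63 (SE 0.173, FDR 0.0338). Its copy *rab5aa* measured 252 to 297 CPM at 2 hpi and 242.1 to 286 CPM in sham libraries (log2 difference 0.06). *rab5c*, the class member with the most reads, measured 504, 391.7 and 587 CPM at 2 hpi and 322 to 504 CPM in sham libraries, a log2 difference of 0.28 (FDR 0.296).

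The next step of the phagosome is marked by Rab7, which directs fusion with lysosomes. *rab7* (ENSDARG00000020497) measured 371, 321 and 342 CPM at 2 hpi, against a lowest value of 236, a median of 274 and a highest of 287 CPM in sham libraries. The groups were fully apart, with a log2 difference of 0.36 (SE 0.111) and an FDR of 0.0661. Of the other members of this class tested, *rab24* and *rab9b* were positive and *rab9a* was negative, and all 3 overlapped between the groups. Outside the name rule, 2 rows are named after human RAB7A. *zgc:91909* was higher (log2 difference 0.95, limma FDR 0.000247), and *zgc:100918* overlapped (log2 difference 0.17, limma FDR 0.694).

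All 4 Rabs that were placed, by symbol alone, in the class of lysosome-related organelles and phagosomes were positive, with a median of 0.51. *rab32a* (ENSDARG00000029036), whose mammalian counterpart serves melanosomes and the trafficking of lysosomal enzymes, measured 79.7, 90.8 and 115 CPM at 2 hpi and between 42.8 and 73.6 CPM in sham libraries, with a log2 difference of 0.58 (FDR 0.0614). *rab20*, which in mammalian macrophages acts in phagosome maturation, measured 57.4, 47.7 and 47.9 CPM at 2 hpi, against 26.1 to 44.8 CPM in sham libraries (log2 difference 0.44, FDR 0.22). Both were without overlap, but the distance between the lowest library at 2 hpi and the highest sham library was small. *rab38b* and *rab23* were lower in reads and overlapped. In the annotation, *rab20* and *naxd* overlap.

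The Rabs of the endoplasmic reticulum and the Golgi held the widest spread, from -1.59 to 1.18, with 10 positive and 5 negative among 15 tested. On the higher side, *rab1ba* (ENSDARG00000058044), a copy of the Rab that carries vesicles from the endoplasmic reticulum to the Golgi, measured 341, 246 and 314 CPM at 2 hpi. Its sham libraries had a lowest value of 187, a median of 218 and a highest of 245 CPM, so that replicate 2 at 2 hpi was barely above the highest sham library. The log2 difference was 0.46 (SE 0.13, FDR 0.0401). *rab2a*, which acts between the same compartments, measured 204, 184 and 169 CPM at 2 hpi and 119 to 168 CPM in sham libraries (log2 difference 0.35, FDR 0.156). *rab43* measured 114, 110.4 and 139 CPM at 2 hpi and 85.7 to 103 CPM in sham libraries (log2 difference 0.38, FDR 0.128). All 3 were without overlap between the groups.

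On the lower side stood Golgi Rabs with few reads. *rab33ba* (ENSDARG00000052290), a copy of Rab33B, a Golgi protein that in mammals also binds the autophagy factor Atg16L1, measured 5.16, 6.06 and 4.25 CPM at 2 hpi. Sham libraries had 9.42 to 14.4 CPM, with a median of 10.3 CPM, and did not overlap with 2 hpi. The log2 difference was -1.001 (SE 0.314), with an FDR of 0.0661. *rab6bb*, a copy of the Rab6 form enriched in mammalian neurons, measured 4.25, 0.932 and 3.96 CPM at 2 hpi and 2.92 to 10.7 CPM in sham libraries (FDR 0.144). *rab39bb* measured 3.49, 6.83 and 3.67 CPM at 2 hpi and 6.41 to 13.98 CPM in sham libraries (FDR 0.19). Its copy *rab39ba* was at 0.152, 0 and 0 CPM at 2 hpi, which is below the limit of detection, and at 0 to 5.001 CPM in sham libraries. At the other end was *rab42b*, with 5.01, 12.7 and 16.3 CPM at 2 hpi and 1.70 to 6.20 CPM in sham libraries, which overlapped in replicate 1 at 2 hpi (FDR 0.144). These are low levels, and their order within the class depended on small numbers of reads.

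Secretory Rabs were mixed, with 7 positive and 4 negative among 11 tested and a median of 0.10. *rab8b* (ENSDARG00000068628), from a subfamily that serves exocytosis, measured 104, 77.8 and 77.3 CPM at 2 hpi, above the sham libraries with a lowest value of 46.6, a median of 58.7 and a highest of 63.7 CPM. Its log2 difference was 0.58 (SE 0.163, FDR 0.0373). The related *rab8a* overlapped, at 87.2 to 92.5 CPM at 2 hpi and 50.3 to 101 CPM in sham libraries. *rab27a*, the Rab of secretory lysosomes and granules, measured 103, 97.8 and 80.2 CPM at 2 hpi and 49.8 to 90.0 CPM in sham libraries, where 1 sham library reached into the range at 2 hpi (log2 difference 0.54, FDR 0.0747).

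Recycling Rabs had 7 positive and 3 negative differences and a median of 0.11, which turned to -0.004 with library size alone. *RAB35 (1 to many)*, a row for the Rab of fast recycling at the plasma membrane, was lower, with 37.5, 40.5 and 24.9 CPM at 2 hpi and 40.8 to 71.4 CPM in sham libraries, a log2 difference of -0.61 (SE 0.202, FDR 0.0851). The row *rab35b* went the other way, with 80.2, 64.6 and 67.6 CPM at 2 hpi and 42.9 to 66.1 CPM in sham libraries (log2 difference 0.38, FDR 0.221). The first was just without overlap and the second overlapped. Reads of these related rows could have been split between them, and neither value passed the test. In the class without an assigned compartment, *rab40c*, from a subfamily with a ubiquitin ligase box, measured 36.4, 48.6 and 51.5 CPM at 2 hpi and 30.6 to 49.0 CPM in sham libraries.

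The remaining 16 Rab rows were below a mean of 1 CPM and were not tested. They included the forms of neurons and other secretory cells, *rab3b*, *rab3c*, *rab3db*, *rab6ba*, *rab15* and *RAB26*, as well as *rab25a*, *rab33a*, *rab34a*, *rab34b*, *rab42a*, *rab1bb*, *rab11al*, the row *RAB27A (1 to many)* and both rows named *RAB19 (1 to many)*. None exceeded 2.05 CPM in a library at 2 hpi or 2.48 CPM in a sham library, levels at which changes are easily missed. With limma and no filter on low values, all 135 members were tested, and those called were again *dennd4a* and *rab11fip1b*.

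**Figure D4:**
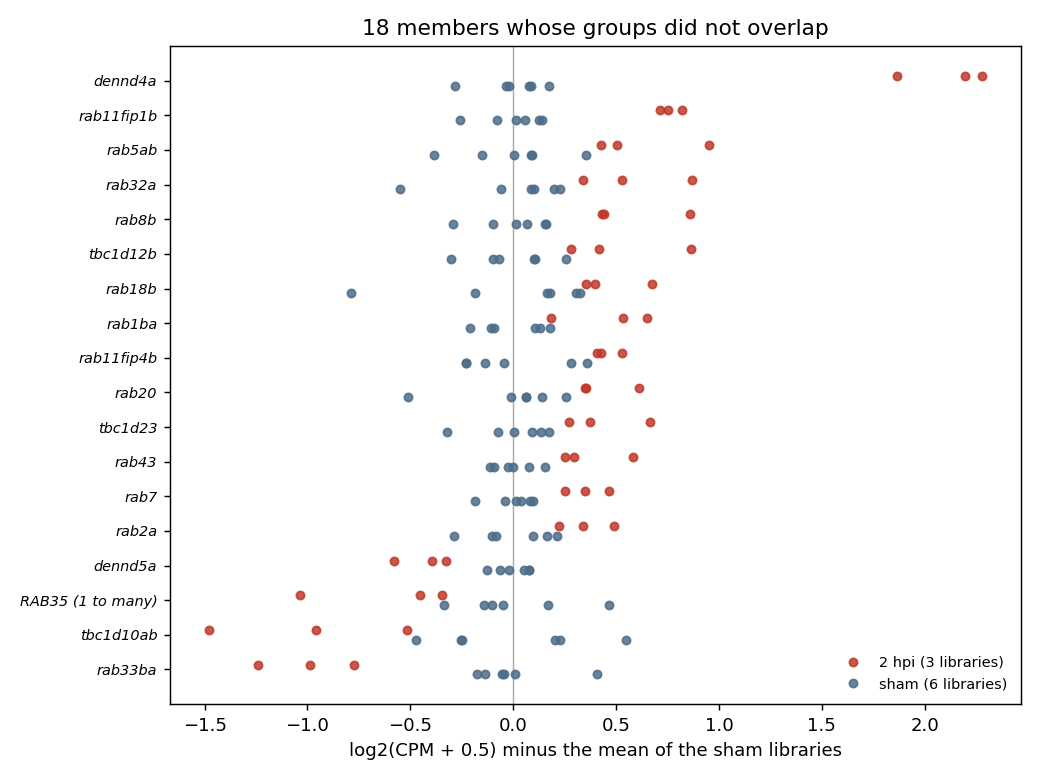
Level of the 18 members without overlap between the groups, as log2(CPM + 0.5) minus the mean of the sham libraries. Points are libraries, 3 at 2 hpi and 6 sham. The 14 genes at the top have every library at 2 hpi above every sham library, *dennd4a* by the widest gap, and the 4 at the bottom have the opposite order.

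The GAPs of the TBC family, which end the active state of Rabs, showed 0 genes past FDR<0.01 in either direction among 31 tested with limma. At an unadjusted p under 0.05, 2 were higher and 3 lower, together 16.1%, against 17.4% of all tested genes. Scaled by library size alone, 1 was higher and 5 lower. DESeq2 on the recovered reads called *tbc1d10ab* lower (adjusted p = 0.00527), as did limma after scaling by library size alone (FDR 0.00742). Its FDR was 0.0556 with limma-voom, and 0.0593 and 0.13 without replicate 1 or 2 at 2 hpi, above the looser 0.05 as well. There were 18 positive and 13 negative differences, with a median of 0.04 that turned to -0.08 with library size alone. *tbc1d10ab* (ENSDARG00000060096) is a copy of TBC1D10A, a GAP known in human cells for Rab27A and Rab35. It measured 19.6, 13.5 and 26.8 CPM at 2 hpi, against a lowest value of 27.7, a median of 38.4 and a highest of 56.7 CPM in sham libraries. The groups did not overlap, although replicate 4 at 2 hpi came within 1 CPM of the lowest sham library. Means were 19.98 ± 6.67 CPM at 2 hpi (SD, n = 3) and 39.8 ± 10.9 CPM in sham larvae (SD, n = 6), and the log2 difference of -0.99 (SE 0.246) had an FDR of 0.0176.

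Higher than in all sham libraries were *tbc1d12b*, whose mammalian counterpart binds Rab11, and *tbc1d23*, a family member without GAP activity that captures endosomal vesicles at the Golgi in mammals. *tbc1d12b* measured 82.8, 75.3 and 113 CPM at 2 hpi and 50.1 to 74.1 CPM in sham libraries (log2 difference 0.52, SE 0.168, FDR 0.0749). *tbc1d23* measured 101, 82.4 and 76.8 CPM at 2 hpi and 50.7 to 71.6 CPM in sham libraries (log2 difference 0.44, FDR 0.126). The class member with the most reads, *tbc1d5*, which in mammals inactivates Rab7 together with the retromer, was level, with a mean of 189 ± 18.8 CPM at 2 hpi (SD, n = 3) and 193 ± 42.3 CPM in sham larvae (SD, n = 6). *TBC1D13* had the highest log2 difference of the class (0.72). It had only 3.34, 7.61 and 9.24 CPM at 2 hpi and overlapped its sham range of 0.784 to 7.10 CPM (FDR 0.54).

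The other GAPs, *rab3gap1*, *rab3gap2*, *RABGAP1* and *rabgap1l*, had a median of -0.12, and 0 passed FDR<0.01 in limma, limma-voom, edgeR or DESeq2, or had an unadjusted p under 0.05 in these fits. *rabgap1l*, the most covered of them, measured 106, 127 and 101 CPM at 2 hpi and 78.1 to 128 CPM in sham libraries. The last member, *rabepk*, an effector of Rab9 in mammals, measured 5.47, 7.30 and 12.9 CPM at 2 hpi and 1.31 to 12.7 CPM in sham libraries.

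Among the tested members were 21 pairs of genes whose symbols differ only in a final a or b, the label *(1 to many)* and letter case left aside. Some are zebrafish duplicates of a single human gene, such as *tbc1d10aa* and *tbc1d10ab*, and others are separate genes of a family, such as *dennd4a* and *dennd4b*. The ratio of the genes of a pair is unaffected by scaling between libraries, except through the 0.5 CPM added, which matters for low genes. It was fitted with limma over all 1248 pairs of tested genes named in this way. Ratios changed at FDR<0.01 for 2 of the 21 pairs, against 2.48% of all pairs, and did not overlap for 4, against 8.25% of all pairs. The log2 difference had opposite signs within 9 of the 21 pairs, against 46.2% of all pairs. For *dennd4a* over *dennd4b*, the log2 ratio was 3.30, 3.94 and 3.58 at 2 hpi, and 1.24 to 2.42 in sham libraries. For *tbc1d10aa* over *tbc1d10ab*, it was 2.196, 3.2002 and 2.319 at 2 hpi, and 0.66 to 1.78 in sham libraries, a difference of 1.24 (SE 0.29, FDR 0.00664). The log2 difference of *tbc1d10aa* itself was 0.26 (FDR 0.398). The FDR of this pair rose to between 0.0128 and 0.114 when any of 6 libraries (injury 1, 2 and 4, sham 1, 5 and 6) was left out.

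The ratio was lower at 2 hpi for the other pairs without overlap, and neither passed the test. *rab18a* and *rab18b* encode copies of Rab18, a Rab of the endoplasmic reticulum and lipid droplets. *rab18a* measured 13.1, 17.9 and 14.96 CPM at 2 hpi and 17.6 to 28.7 CPM in sham libraries. *rab18b* measured 31.1, 25.6 and 24.8 CPM at 2 hpi and 10.97 to 24.3 CPM in sham libraries. Their log2 ratio was thus lower by 1.04 at 2 hpi (SE 0.325, FDR 0.063). For *dennd5a* over *dennd5b*, the difference in log2 ratio was -0.62 (SE 0.202, FDR 0.0838).

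**Figure D5:**
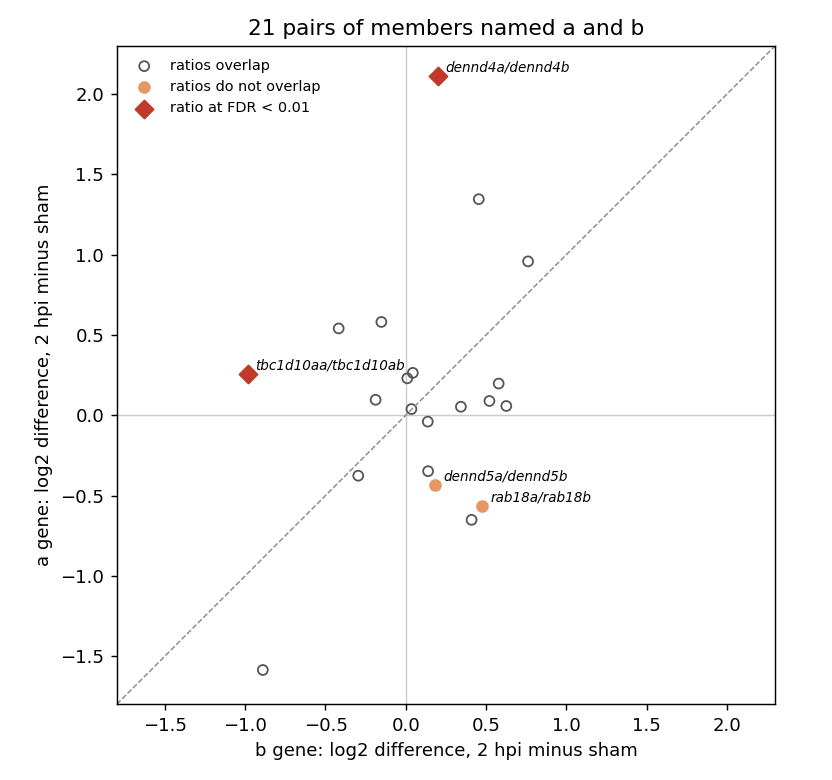
Log2 difference (2 hpi minus sham) of the gene named a against that of the gene named b for the 21 pairs. Each point is 1 pair, the dashed line marks equal differences, and filled symbols mark pairs whose ratio did not overlap between the groups. *dennd4a*/*dennd4b* lies far above the line, and 9 pairs lie in the quadrants of opposite sign.

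The Rab pathway also holds genes with other names, of which 112 were listed and 100 tested. Of the 100, 4 rose and 0 fell, against 2.09% and 0.593% of all tested genes. At FDR<0.05, 7 were higher and 2 lower, against 3.55% and 1.96%, and 7 lay above all sham libraries and 0 below, against 5.68% and 4.55%. The median was -0.005. In limma, 11 were higher and 2 lower at an unadjusted p under 0.05, together 13%, against 17.4% of all tested genes. Scaled by library size alone, 7 were higher and 9 lower at this level. DESeq2 called 5 higher and 1 lower, and library size alone left 2 higher and 0 lower. Of all 16347 tested genes, DESeq2 called 493 higher and 220 lower, and library size alone 257 and 191. The exchange factors *rin3* and *madd*, the Rab8 effector *optn* and the lipid kinase *pikfyve* were the 4 that rose in limma. Each averaged at least 50 CPM, a level at which 6.13% of all genes rose. The pathway genes at that level were not compared on their own. *rin3*, known in human cells to act on the Rab5 family, measured 278, 157 and 265 CPM at 2 hpi and 78.7 to 111 CPM in sham libraries, with a log2 difference of 1.27 (FDR 2.77e-05). *optn*, the autophagy receptor optineurin, measured 83.2, 89.3 and 96.2 CPM at 2 hpi and 30.4 to 49.0 CPM in sham libraries (log2 difference 1.23, FDR 6.6e-05). *pikfyve*, whose product makes a phosphoinositide of late endosomes, measured 254, 339.9 and 359 CPM at 2 hpi and 181 to 227 CPM in sham libraries (log2 difference 0.62, FDR 0.00534). *madd*, a DENN domain protein that acts on Rab3 in mammals, measured 195, 119.9 and 199.7 CPM at 2 hpi and 96.8 to 114 CPM in sham libraries (log2 difference 0.66, FDR 0.0095). Its call was near the threshold, and replicate 2 at 2 hpi lay close to the highest sham library. Among 34 tested exchange factors outside the name rule, 16 were positive and 18 negative, and the 52 effectors and tethers had a median of -0.07. The 6 genes of prenylation and recycling of Rabs had a median of 0.22, and the one without overlap, the escort protein *chm*, measured 29.3 to 33.1 CPM at 2 hpi and 13.6 to 24.2 CPM in sham libraries (FDR 0.0424).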

How the data were processed

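RNA-seq libraries of sorted cells (3 at 2 hpi, 6 sham) were compared. The signal values deposited by the authors are CPM scaled with TMM factors. Per the labels and methods, amplification used the Ovation RNA-Seq System V2, trimming cutadapt 1.9, alignment to GRCz10 STAR 2.5.2b, counting featureCounts 1.5.1 and normalisation edgeR 3.20.1 (versions from the submitters' processing notes). The annotation release and the use of strand are not given in the sources used here. Columns with the authors' mean, fold change, p-value and FDR were not used. Whole reads were recovered from 100% of the values (tolerance 0.02 reads), and edgeR's quasi-likelihood test on them called 327 genes higher and 61 lower.

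Genes averaging 1 CPM or more were tested with limma 3.58.1 (R 4.3.3, variance trend, condition only) on log2(CPM + 0.5), with Benjamini-Hochberg adjustment over 16347 genes. Exact permutation tests were two-sided. Alternatives were scalings, pseudocounts, filters, limma-voom, DESeq2 1.42.0, edgeR 4.0.16, a replicate block, FDR<0.05 and leaving out libraries. Fits were tested on simulated data. Named genes were members with FDR<0.01 and their partners named a or b, the 5 highest and 5 lowest members with at least 5 CPM, and the most covered member of each class. Members without overlap, the pairs and other named genes were chosen after their values were seen. Members and lists were chosen with earlier results of these data known. Overlapping genes were taken from the RefSeq annotation of GRCz12tu, and promoter motifs were not analysed here. No replicates were near-duplicates.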

Additional observations from a re-analysis of the deposited data

Results flagged for a closer look

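Of the 35 sham groups of named members examined for a library far from the others, 1 was flagged, where chance flags about 1 group in 20. Sham replicate 3 had 14.37 CPM of *rab33ba*, above the other sham libraries, and all 3 libraries at 2 hpi (4.25 to 6.06 CPM) remained below every sham library.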

How the results depend on the processing

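*dennd4a* rose at FDR<0.01 under every alternative run. The count of members that rose was 2, but 4 with a replicate block (*rab5ab* and *rab27a* added), 3 with DESeq2 (*rab8b* added), 5 at FDR<0.05, 1 with library size alone, and 1 to 2 when 1 library was left out (1 without injury 1, 2 or 4 or sham 1, where *rab11fip1b* was lost). The count that fell was 0, but 1 with library size alone, with DESeq2 and at FDR<0.05 (*tbc1d10ab* each time). Of all 16347 tested genes, 341 were higher and 97 lower in the main fit. These were 257 and 191 with library size alone, 493 and 220 with DESeq2, 474 and 145 with the block, and 580 and 320 at FDR<0.05. The median of the members was 0.10, but -0.0202 with library size alone, where it stayed 0.11 above that of all genes, and 0.07 to 0.19 when 1 library was left out. Members above all sham libraries numbered 14, but 5 with library size alone (4.2%, against 3.88% of all genes), and 14 to 22 when 1 library was left out (all genes 6.22% to 9.07%). Members below all sham libraries numbered 4, but 9 with library size alone (7.56%, against 6.85% of all genes). When 1 library was left out, they numbered 4 to 9 (all genes 5.16% to 8.26%). Leaving out a library can only keep or add genes without overlap, so these counts could not fall below those of the main fit. The composition factors were 0.932 to 0.953 at 2 hpi and 0.976 to 1.06 in sham libraries. Scaling without them therefore lowered the values at 2 hpi against sham. The cause of the other shifts was not tested. These counts without overlap and the pair ratios were compared after the data had been seen. Signs turned for genes near 0 and for the thinly covered *rabepk*. *tbc1d5* (-0.01) was 0.00065 with RLE factors, 0.0103 with upper quartile factors and 0.14 with the block. *rab3il1* (0.04) was -0.0759 and *rabgap1l* (0.10) -0.0202 with library size alone, and *rabepk* (0.28) was -0.37 with the block. With 1 library left out, *tbc1d5* ranged over -0.06 to 0.10, *rab3il1* over -0.0445 to 0.195, *rabgap1l* over -0.00223 to 0.167 and *rabepk* over -0.11 to 0.54. Replicate numbers were not taken as pairs in the main fit, and whether they mark pairs could not be settled. For RT-qPCR, the paper compared injured and sham cDNA of the same day, in part from the RNA-seq samples, without giving their numbers. The deviations of injury and sham libraries with the same number correlated at 0.124, 0.109 and 0.0244, not all above 0.1. Injury 1 and 2 correlated best with their own number and injury 4 with sham 3 (0.0277). Low read numbers limit genes under about 5 CPM.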

Other observations

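A few rows whose symbol did not match the rule carry a Rab or DENN name in a newer name table. Of 7 such rows, 1 differed without overlap. *zgc:91909* (ENSDARG00000021287), named after the human RAB7A of late endosomes, measured 106, 115 and 114 CPM at 2 hpi, against a lowest value of 50.3, a median of 58.1 and a highest of 65.4 CPM in sham libraries. This was a 1.93-fold difference, with a log2 difference of 0.95 (SE 0.15, limma FDR 0.000247). The other row named RAB7A, *zgc:100918*, measured 72.7 to 80.9 CPM at 2 hpi and 45.3 to 84.9 CPM in sham libraries, a log2 difference of 0.17. The 2 rows were seen after the members had been chosen and are outside all counts of members.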
